A study of Chlamydomonas reinhardtii with 12 samples.

Results

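PDS1 is the gene for phytoene desaturase of the green alga Chlamydomonas reinhardtii, at locus CHLRE_12g509650v5. It was followed through the 4 array spots annotated to this locus, out of 11520 spots on the array. These 4 spots carry the same cDNA clone and make up 1 of 2880 elements, and the locus is 1 of 100 loci that the platform's annotation names. That annotation gives the locus tag alone, so the enzyme's name could not be checked against the array values. The strains were the double mutant npq1 lor1 and the wild type CC-125, and RNA of both was hybridised on each 2-colour slide. Cultures grown in low light were compared before a shift to high light and 1 h and 6 h after it. Each time point had 2 biological samples, and each of these was measured on 2 slides with the channels of the strains exchanged. The strains were not described further in the labels, and the light intensities were not given there.

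Phytoene desaturase is a plastid enzyme that acts early in carotenoid synthesis. It introduces double bonds into colourless phytoene on the way to zeta-carotene and lycopene, passes the electrons to plastoquinone, and is the target of the bleaching herbicide norflurazon. The mutations of npq1 lor1 lie downstream of this step. The lor1 mutation blocks the branch to lutein, and npq1 blocks the conversion of violaxanthin to zeaxanthin in strong light, so the double mutant is without xanthophylls known to shield plastids from excess light. The comparison asked whether the mutant held a different level of PDS1 transcript from wild type before and during the light shift. A strain ratio on 1 slide does not measure how far the transcript moved with light within either strain, because a response that both strains share cancels in it.

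The deposited ratio probably has wild type on top and npq1 lor1 below. This holds if channel 1 was Cy3 on every slide, a dye that the labels do not state, and it follows the order of the strains in the titles. Under that reading a negative log2 ratio means more PDS1 transcript in npq1 lor1. If channel 1 was instead Cy5 on every slide, each ratio would have npq1 lor1 on top, with its size and p-value unchanged. Slides of opposite orientation ran against each other over all elements, with Pearson's r from -0.57 to 0.13 over 36 pairs, while r was 0.31 to 0.83 over the 30 pairs of equal orientation. The direction is therefore not settled by the data, and the PDS1 ratios, changes, intervals, ranks and correlations are also given with the sign of one orientation turned. Between 7.36% and 43.4% of the spots on a slide had a deposited value of 0 and were read as not measured, which left 2202 to 2699 elements per slide. The number of slides limits the precision. The labels call the samples biological replicates without naming separate cultures, so the p-values measure the spread between these samples.

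No difference in PDS1 transcript between npq1 lor1 and wild type passed the test at any of the 3 time points. Its mean log2 ratio was 0.058 in low light, 0.18 after 1 h of high light and -0.065 after 6 h, with adjusted p-values from limma of 0.372 or more. With the deposited sign, the 95% intervals allowed a strain difference of at most 1.16-fold under low light, 1.27-fold at 1 h and 1.17-fold after 6 h. These bounds are for whichever direction the interval reached farther. With the sign of one orientation turned they were 1.23-fold, 1.16-fold and 1.19-fold. The deposited 1 h interval, from 1.01-fold to 1.27-fold and not adjusted for the number of elements, left out equality. Of the 48 spot values of PDS1, 43 were measured and 5 were 0. Of those measured, 27 were positive and 16 negative, between -0.64 and 0.45 with a median of 0.059.

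**Figure D1:**
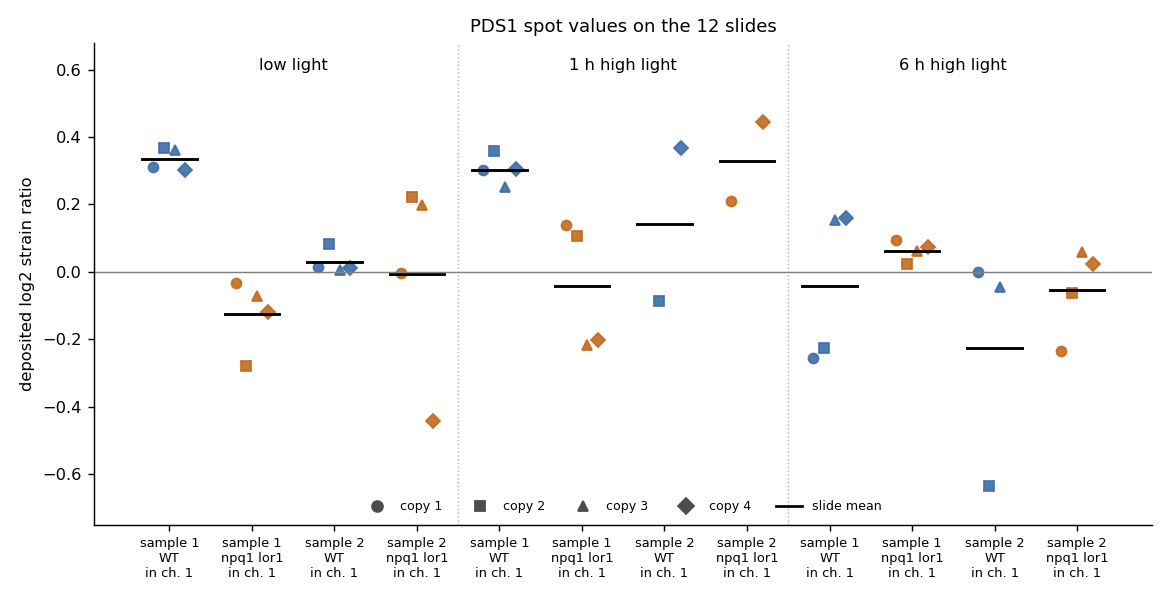
Deposited log2 strain ratio (vertical axis) of each measured PDS1 spot on the 12 slides (horizontal axis), grouped by time point and biological sample. Symbols mark the 4 copies, colours the strain in channel 1, and black bars the slide means, which lie between -0.23 and 0.34 with 6 above and 6 below 0.

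In low light the first biological sample gave slide means of 0.34 with wild type in channel 1 and -0.13 with npq1 lor1 there. The second gave 0.029 and -0.0069. Exchanged slides thus had opposite signs in both samples. On the slide with the mean of 0.34 the 4 copies lay between 0.30 and 0.37, and 83.4% of the elements of that slide had a lower ratio. On the second sample's slide with npq1 lor1 in channel 1 the copies ran from -0.44 to 0.22, so that its mean near 0 averaged spots on both sides.

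After 1 h of high light the first biological sample gave 0.30 with wild type in channel 1 and -0.043 with npq1 lor1 there. The second gave 0.14 and 0.33. Of these 4 slides 3 were positive, and all 4 stood above the median element of their slide, by 0.033 to 0.39. Both slides of the second sample rested on 2 measured copies each, at -0.085 and 0.37 on one and at 0.21 and 0.45 on the other. The slide of this sample with wild type in channel 1 was also the one with 43.4% of all spots at 0, and the part of these missing spots in the result was not tested.

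After 6 h the first biological sample gave -0.041 with wild type in channel 1 and 0.063 with npq1 lor1 there. The second gave -0.23 and -0.054. Measured against the median element of the slide, PDS1 stood lower on both slides with wild type in channel 1, by 0.16 and 0.31, and higher on both with npq1 lor1 there, by 0.086 and 0.052. The lowest slide mean, -0.23, came from 3 copies, of which copy 2 was at -0.64 and the others at -0.00032 and -0.045. On that slide 43.2% of all spots were at 0, and the part of these missing spots in the result was not tested. Without copy 2 on every slide, the 6 h mean was 0.0057 in place of -0.065.

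On some slides the copies fell into pairs. At 6 h, on the first sample's slide with wild type in channel 1, copies 1 and 2 were at -0.25 and -0.23 and copies 3 and 4 at 0.16 and 0.16. At 1 h, on the first sample's slide with npq1 lor1 in channel 1, copies 1 and 2 were at 0.14 and 0.11 and copies 3 and 4 at -0.22 and -0.20. The first pair minus the second was -0.40 and 0.33 on these slides. Over all elements with 4 measured copies, its median was 0.081 and -0.012, and 17.3% and 91.8% of them lay below PDS1. The spread between copies was otherwise that of an ordinary element, with a mean SD of 0.12 under low light, 0.18 at 1 h and 0.19 after 6 h for PDS1 and medians of 0.13, 0.17 and 0.19 over the elements tested.

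Averaged over exchanged slides, the PDS1 log2 ratio under low light was 0.11 in one biological sample and 0.011 in the other, for a mean of 0.058 ± 0.067 (SD, n = 2). At 1 h it had 0.13 and 0.23, a mean of 0.18 ± 0.074 (SD, n = 2). At 6 h it had 0.011 and -0.14, a mean of -0.065 ± 0.11 (SD, n = 2). Both 1 h samples stood above the other 4, while the lower low light sample and the higher 6 h sample were level at 0.011. The standard error of each mean was 0.071, since the fit uses 1 spread per element.

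Against equality of the strains, limma's adjusted p for PDS1 was 0.974 under low light, 0.372 at 1 h and 0.633 after 6 h. The unadjusted p was 0.435, 0.0313 and 0.387. As background, 8 of 2396 tested elements (0.334%) passed the threshold in low light, 16 of 2272 (0.704%) at 1 h and 43 of 2139 (2.01%) at 6 h. At 1 h 267 elements had an unadjusted p under 0.05, so PDS1 was 1 of many at that level. With wild type read as on top, the interval of the wild type to npq1 lor1 fold was 0.931 to 1.16 in low light. It was 1.01 to 1.27 at 1 h and 0.855 to 1.07 at 6 h.

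With the deposited sign, the 1 h ratio was the one nearest to a call. It was positive in both biological samples and exceeded 94.5% of the tested elements, and 12.6% of the elements lay farther from equality in either direction. In low light 47.8% lay farther from equality, and at 6 h 63.9%. The median of all tested elements was -0.011 under low light, 0.0090 at 1 h and 0.026 after 6 h.

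The strain ratio of PDS1 did not move past the test between any of the time points either. Taken as later minus earlier, it differed by 0.12 between 1 h and low light (SE 0.10, limma adjusted p = 0.949) and by -0.12 between 6 h and low light (SE 0.10, adjusted p = 0.652). Between 6 h and 1 h it differed by -0.25 (SE 0.10, adjusted p = 0.511, unadjusted p = 0.0372), with a 95% interval from -0.48 to -0.018. For these changes 1 of 2195 (0.0456%), 1 of 2032 (0.0492%) and 4 of 1925 (0.208%) elements passed. Of the elements tested between 1 h and 6 h, 10.3% had a larger change in size than PDS1. The 3 changes share samples and are not independent of each other.

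With the sign of the slides with npq1 lor1 in channel 1 turned, the PDS1 ratio under low light was 0.12, that at 1 h 0.040 and that at 6 h -0.069, with limma adjusted p of 0.257, 0.751 and 0.606. Its changes were then -0.084 to 1 h, -0.19 from low light to 6 h and -0.11 from 1 h to 6 h, with adjusted p of at least 0.712. PDS1 passed the test neither with the deposited sign nor with the turned sign. The intervals of the turned fold were 0.964 to 1.23, 0.910 to 1.16 and 0.843 to 1.08 at the 3 time points in order. Turning moved the median of all tested elements to 0.13 under low light, 0.12 at 1 h and 0.073 after 6 h. Of the tested elements 49.2%, 34.2% and 17.8% then lay below PDS1, and 59.6%, 84.5% and 68.7% lay farther from equality, so the high place of PDS1 at 1 h rests on the deposited sign.

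The difference between exchanged slides, wild type in channel 1 minus npq1 lor1 there, was 0.46 and 0.036 in low light, 0.35 and -0.19 at 1 h, and -0.10 and -0.17 at 6 h in the 2 biological samples. Over all elements the median of this difference was positive in each of the 6 samples, from 0.15 to 0.35, so that PDS1 lay on the other side of 0 from the median element in 3 of them.

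Among the elements with a locus tag, PDS1 ranked 18th from the highest ratio of 94 tested in low light, 4th of 93 at 1 h and 47th of 79 at 6 h, with the deposited sign. With the sign of one orientation turned it ranked 39th, 54th and 60th. Of these locus-tagged elements 1 of 94 passed limma's test under low light, 0 of 93 at 1 h and 8 of 79 after 6 h. Over the whole array 8 of 2396 (0.334%), 16 of 2272 (0.704%) and 43 of 2139 (2.01%) passed. At an unadjusted p under 0.05 there were 13, 15 and 24 locus-tagged elements, and 191, 267 and 461 elements over the whole array. The locus-tagged ratios ran from -0.48 to 0.64 in low light, from -0.50 to 0.59 at 1 h and from -1.03 to 0.26 at 6 h.

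**Figure D2:**
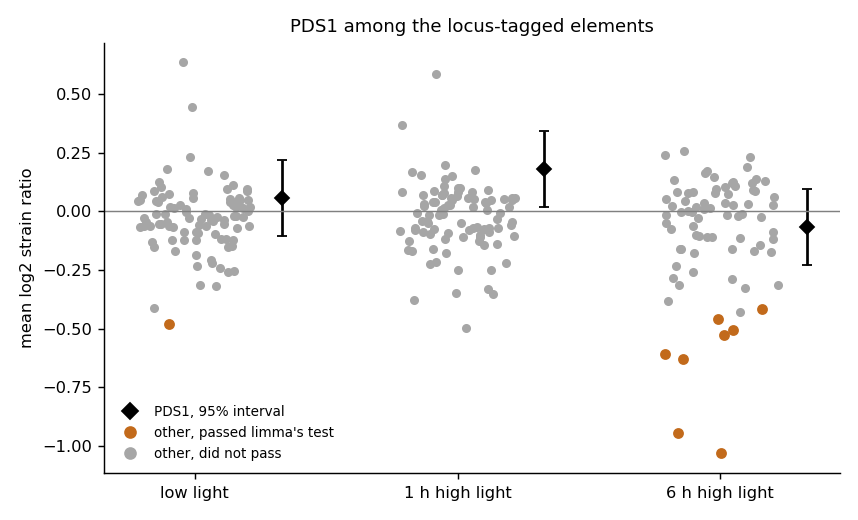
Mean log2 strain ratio (vertical axis) of the locus-tagged elements at the 3 time points (horizontal axis). Diamonds are PDS1 with its 95% interval, which includes 0 in low light and at 6 h and runs from 0.021 to 0.34 at 1 h, and orange points are the other elements that passed limma's test. Sideways scatter of points has no meaning.

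The other enzymes of the pathway could not be set beside PDS1. Of 10 further loci listed for carotenoid and isoprenoid synthesis and plastoquinol oxidation, 0 were among the annotated spots. A second list, of other pigment-related loci, held 4 loci, CHLRE_17g720250v5, CHLRE_03g158000v5, CHLRE_08g365900v5 and CHLRE_16g673650v5, all on the array. They were listed as CP29, GSA1 of tetrapyrrole synthesis, LHCSR1 and CP26, in that order. The platform's annotation gives these loci no gene name. They were listed with their ratios at 6 h known, so their calls there are no independent support.

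Over the whole array 43 of 2139 elements (2.01%) passed limma's test at 6 h, 36 of them with a negative ratio. All 4 compared loci had negative ratios that passed there, while PDS1 was at -0.065. Their 6 h ratios were -0.41 ± 0.092 for CHLRE_17g720250v5, -0.53 ± 0.18 for CHLRE_03g158000v5, -1.03 ± 0.18 for CHLRE_08g365900v5 and -0.94 ± 0.015 for CHLRE_16g673650v5 (SD, n = 2 each). Both biological samples of each locus lay below both samples of PDS1. The loci were listed with these ratios known, so the gap between PDS1 and each of them at 6 h is given without a test. PDS1 minus the locus was 0.92 and 1.02 in the 2 biological samples for CHLRE_08g365900v5, 0.97 and 0.79 for CHLRE_16g673650v5, 0.41 and 0.52 for CHLRE_03g158000v5 and 0.36 and 0.34 for CHLRE_17g720250v5.

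The gaps depended on the reading of the channels. With the sign of the slides with npq1 lor1 in channel 1 turned, PDS1 minus the locus averaged -0.17 for CHLRE_08g365900v5, 0.051 for CHLRE_16g673650v5, 0.088 for CHLRE_03g158000v5 and 0.069 for CHLRE_17g720250v5. The 6 h ratios of these loci then averaged 0.10, -0.12, -0.16 and -0.14, against -0.069 for PDS1.

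**Figure D3:**
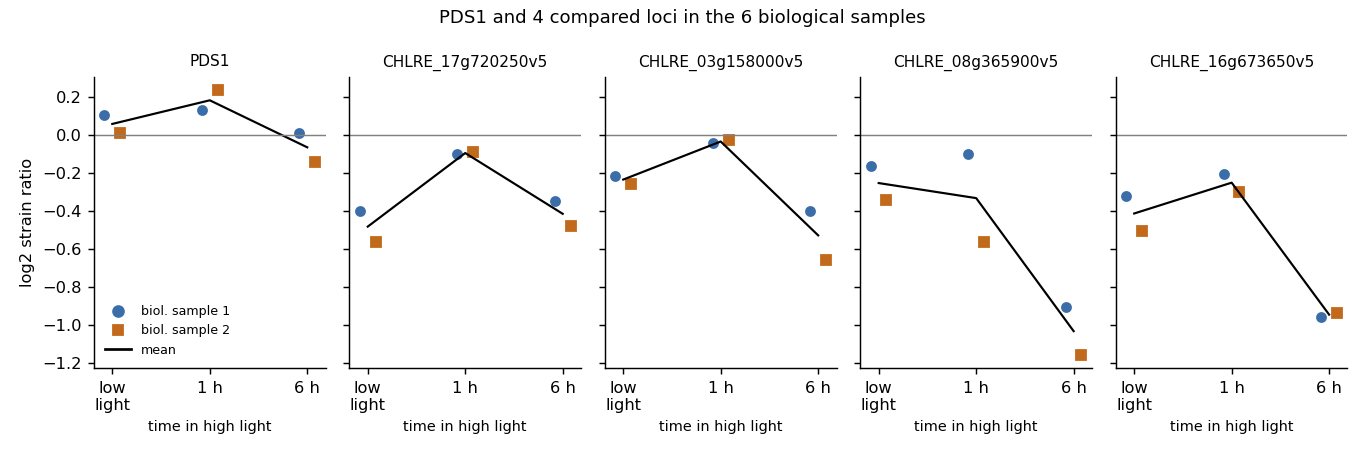
Log2 strain ratio (vertical axis) of PDS1 and of the 4 compared loci at each time point (horizontal axis, low light first). Circles and squares are the 2 biological samples of a time point and lines join the means. PDS1 stays between -0.14 and 0.23 in all 6 samples, and the 4 loci lie between -1.16 and -0.35 at 6 h.

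The course of PDS1 over the 6 biological samples, highest at 1 h and lowest at 6 h, was compared with that of the 74 other locus-tagged elements measured in all 6. Pearson's r with PDS1 ranged from -0.68 to 0.95 with a median of 0.18, and 4 of the 74 (5.41%) reached 0.8, against 70 of 1894 elements (3.70%) over the whole array. With the deposited sign, the highest r was that of CHLRE_03g158000v5, at 0.95. Its ratios were -0.21 and -0.26 in low light, -0.043 and -0.025 at 1 h and -0.40 and -0.66 at 6 h. It followed the same order of time points as PDS1 at lower ratios, with a root mean square distance of 0.34.

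The next most alike were CHLRE_12g485050v5 with r = 0.87, CHLRE_16g673650v5 with 0.82, CHLRE_03g144807v5 with 0.81 and CHLRE_17g720250v5 with 0.77. CHLRE_12g485050v5 stood nearest to PDS1 in level among these, at a root mean square distance of 0.097, with means of 0.016 under low light, 0.057 at 1 h and 0.015 after 6 h. CHLRE_03g144807v5 covered a far wider range, with 0.60 and 0.57 at 1 h and 0.22 and -0.54 at 6 h. The 6 points of each correlation share slides, labelling and regional trends with those of PDS1, and r here is a description. With the sign of one orientation turned, the mean of PDS1 was highest in low light, and r was 0.29 for CHLRE_03g158000v5, -0.36 for CHLRE_12g485050v5, 0.14 for CHLRE_16g673650v5, 0.41 for CHLRE_03g144807v5 and -0.12 for CHLRE_17g720250v5. The likeness thus did not hold with the turned sign, where 2 of the 74 elements (2.70%) reached 0.8, against 186 of 1894 elements (9.82%).

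The spread of PDS1 between biological samples was ordinary for the array. The samples differed by 0.094 under low light, 0.10 at 1 h and 0.15 after 6 h, and the median element by 0.073, 0.13 and 0.12. Its residual SD over all time points was 0.084, against a median of 0.10 over 1895 elements measured in all samples, and 39.4% of these had a smaller one. Exchanged slides of PDS1 lay closer than those of most elements at 6 h, by 0.14 on average against a median of 0.29.

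**Figure D4:**
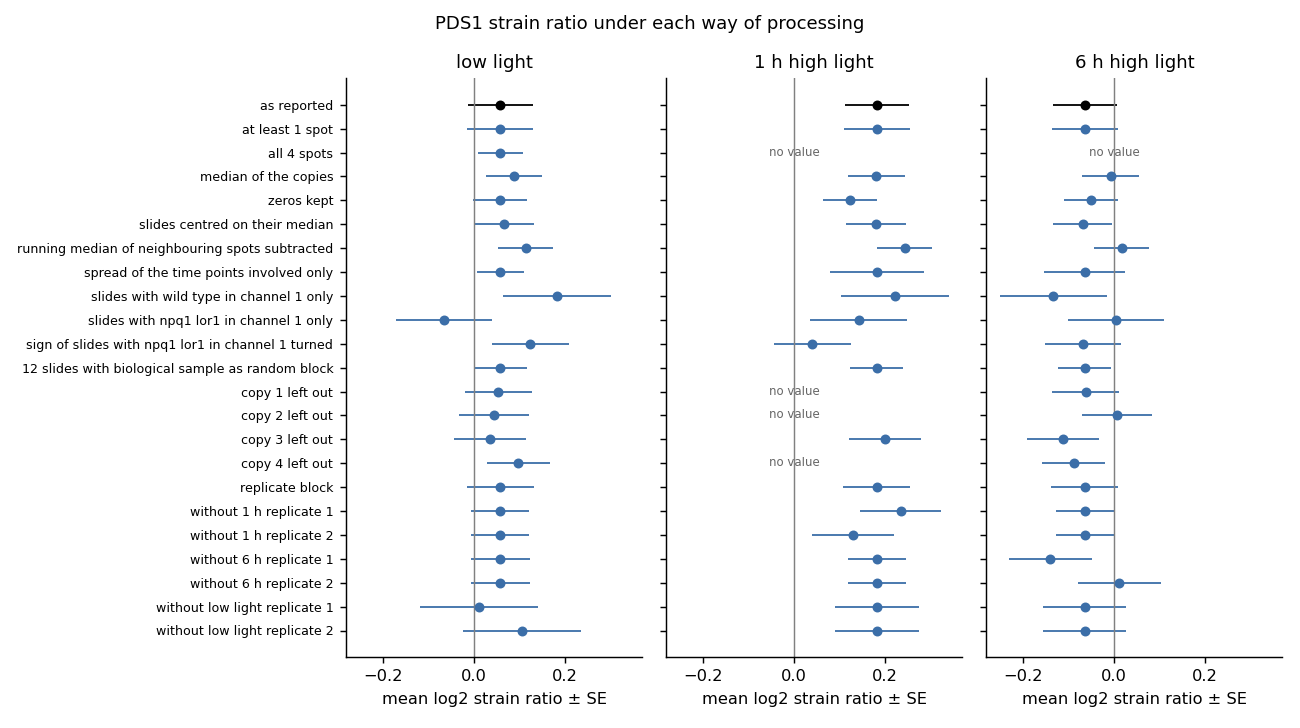
Mean log2 strain ratio of PDS1 with its standard error (horizontal axes) under each way of processing (rows), with a panel for each time point. At 1 h the values stay positive, between 0.040 and 0.24. In low light and at 6 h some lie on the other side of 0.

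Across these ways of processing and the leaving out of single copies where 1 spot sufficed, the 1 h ratio of PDS1 kept its sign in 22 of 22 and passed the threshold in 0, with an adjusted p of at least 0.119. It was 0.24 after a local median over nearby spots was taken off (limma adjusted p = 0.149) and 0.11 without copy 4 when 1 spot sufficed. The 6 h ratio changed sign in 5 of 25 alternatives and the low light ratio in 1 of 26. Alternatives that altered only the spread, the block or the samples of other time points could not move a ratio. They stand in these tallies with their sign fixed in advance.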

How the data were processed

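Total RNA of npq1 lor1 and of CC-125 was hybridised together on 12 slides. The deposited values are log2 ratios after normalization in SNOMAD by the authors, as the labels state. The sources used here give neither its settings nor the background correction or spot filter. Where wild type was in channel 1 the authors' ratio is Cy3 over Cy5, and where npq1 lor1 was there it is Cy5 over Cy3, per the labels. No sign was turned in the reported values.

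Spot values of exactly 0 were treated as missing. The mean of at least 2 of the 4 copies was taken per slide, then the mean of both slides of a biological sample, which gave 6 values per element. All elements were fitted together with limma 3.58.1 in R 4.3.3, with a mean per time point and 1 moderated spread per element (prior df 5.66, prior SD 0.108 on the log2 scale). Two-sided tests compared the means with 0 and with one another, and p-values were adjusted by Benjamini-Hochberg over every element tested, at a threshold of 0.05. Intervals are 95% intervals from the moderated spread. The fit was tested on simulated data.

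The gene, the compared loci and the lists were chosen with earlier results of these data known. The text names PDS1, the listed loci on the array, and the 5 other locus-tagged elements whose 6 values correlated best with those of PDS1. Locus tags were taken from the platform annotation. The 10 further loci of the carotenoid and isoprenoid list matched 0 annotated spots and were not analysed here. The alternatives tried were the minimum number of copies, their summary, zeros, centring, regional trend, the spread, the channel orientation and its sign, the unit of the fit, single copies, the biological sample number as a block, and each biological sample left out in turn.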

Additional observations from a re-analysis of the deposited data

Results flagged for a closer look

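PDS1 gave no result that stood out by these measures: no slide lay far from the other slides of its time point, and no change between time points passed. Among the 7 loci named, CHLRE_16g673650v5 passed the test for its change from 1 h to 6 h. Over the whole array 4 of 1925 elements (0.208%) passed for this change. The locus was listed with its 6 h ratio known, so this call is no independent support. Its ratio was -0.94 at 6 h and -0.25 at 1 h, a change of -0.69 (limma adjusted p = 0.0412). The PDS1 change over the same interval was -0.25 (adjusted p = 0.511). The call for CHLRE_16g673650v5 was lost in 16 of 25 alternatives (adjusted p from 0.00245 to 0.905, changes from -1.22 to -0.17), among them the turned sign (-0.53, adjusted p = 0.170), slides with npq1 lor1 in channel 1 only (-0.17, adjusted p = 0.905), and the leaving out of any biological sample of 1 h or 6 h (adjusted p 0.156, 0.236, 0.0634 and 0.163). Whether these changes differ from each other was not tested.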

How the results depend on the processing

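PDS1 passed the test in 0 of the alternatives run for its 3 ratios and 3 changes, with the lowest adjusted p at 0.119. With slides of npq1 lor1 in channel 1 only, its ratio was -0.066 in low light and 0.0045 at 6 h, and its change from low light to 6 h was 0.071. The 6 h ratio was 0.016 with the running median subtracted and 0.0057 without copy 2, also where 1 spot sufficed, an alternative added after the data were seen. With the sign of one orientation turned, the change from low light to 1 h was -0.084. The cause of these reversals was not tested. Leaving out each biological sample gave low light ratios of 0.011 to 0.11, 1 h ratios of 0.13 to 0.23 and 6 h ratios of -0.14 to 0.011, the last positive without the second 6 h sample. The changes were then 0.072 to 0.18 from low light to 1 h, -0.20 to -0.047 from low light to 6 h and -0.32 to -0.17 from 1 h to 6 h. A lone sample left at a time point was assumed to vary like the others. A minimum of 4 spots gave PDS1 no value at 6 h, where 300 elements were tested, because PDS1 had too few measured copies. At 1 h that minimum left 0 elements tested over the whole array. Leaving out copies 1, 2 or 4 with a minimum of 2 gave PDS1 no value at 1 h, because it had too few measured copies there. Where zeros were kept, spots at 0 on every slide stayed missing.

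Biological samples of equal number did not deviate together in every pair of time points (r over elements of 0.23, -0.019 and -0.15). The reported fit did not pair samples by number. Whether samples of equal number shared a batch was not tested. With the number as a replicate block the PDS1 ratios stayed at 0.058, 0.18 and -0.065, which a block balanced over the time points cannot alter. Their limma adjusted p was then 0.974, 0.344 and 0.647. Under this block 28 elements passed under low light, 26 at 1 h and 59 after 6 h, in place of 8, 16 and 43. The number of elements passing over the whole array depended strongly on the processing: it ran from 0 (with 181 at an unadjusted p under 0.05) to 842 in low light, from 1 to 796 at 1 h and from 21 to 479 at 6 h, each highest with the turned sign. With the turned sign 759 of the 842, 708 of the 796 and 415 of the 479 were positive, and the median of all tested elements was 0.13, 0.12 and 0.073. What part this shift of the whole array had in those counts was not tested. For the changes the number passing ran from 0 to 3, 0 to 33 and 0 to 38.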
